A study of Mus musculus with 12 samples.

Results

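The genes described here are 32 mouse genes of the endoplasmic reticulum (ER) folding machinery and the unfolded protein response. They were listed by symbol, with earlier results of these data known, and matched by symbol among the 38924 genes counted. They were measured by RNA-seq in 12 pancreatic neuroendocrine tumors (PanNETs) of RIP1Tag2 mice on the C57Bl6 strain, in which the rat insulin promoter drives the SV40 T antigen in pancreatic beta cells, so that every group carried the same transgene. Mice were dosed for 4 days, starting at 15.5 weeks. The 4 control tumors came from mice given saline, 4 tumors from mice given sunitinib, an inhibitor of the VEGF and PDGF receptors, and 4 from mice given rapamycin, an mTOR inhibitor, together with sunitinib (R+S). All 32 genes were found and all passed the filter on low counts, their lowest count in any tumor being 561 reads and their highest 93246.

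Proteins bound for secretion enter the ER through the Sec61 translocon, fold there with the help of chaperones and disulfide isomerases, and are sent back to the cytosol for destruction by ER-associated degradation (ERAD) when folding fails. When unfolded proteins accumulate, the sensors Ern1 (IRE1), Atf6 and Eif2ak3 (PERK) switch on a program that restrains translation and raises the chaperones and ERAD genes. Beta cells, from which these tumors arise, fold large amounts of proinsulin and rely on this system. Gene counts do not show the splicing of Xbp1 mRNA by IRE1, the cleavage of ATF6 or the phosphorylation of PERK, so that activity of the sensors was not measured.

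Some of these genes carry in their promoters the ER stress response element, bound by ATF6 together with NF-Y, and its occurrences are printed here to show which of these genes hold it. RefSeq promoters (mouse GRCm38.p6, 250 bases before to 50 bases after the start site, 300 bases in all) were held for 26 of the 32 genes and were searched on both strands for the letters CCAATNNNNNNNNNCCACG. The element was found in 9 of the 26 genes (34.6%), compared with 37 of the 27025 genes in the table (0.137%), or 0.119% of its 32851 promoters. In the lines that follow the element is in capitals with 5 flanking bases on each side, each run is read 5′ to 3′ on the strand named, and the coordinates are those of GRCm38.
Hspa5 (chr2:34772020-34772048, plus strand): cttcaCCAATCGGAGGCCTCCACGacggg
Hsp90b1, distal (chr10:86705633-86705661, minus strand): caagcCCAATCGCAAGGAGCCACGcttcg
Hsp90b1, proximal (chr10:86705528-86705556, plus strand): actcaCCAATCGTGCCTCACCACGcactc
Dnajc3 (chr14:118937822-118937850, plus strand): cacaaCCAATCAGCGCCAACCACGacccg
Creld2 (chr15:88819515-88819543, minus strand): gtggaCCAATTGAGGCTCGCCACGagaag
Pdia6 (chr12:17266486-17266514, plus strand): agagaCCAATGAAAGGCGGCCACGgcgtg
Calr (chr8:84847070-84847098, plus strand): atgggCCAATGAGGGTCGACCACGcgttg
Canx (chr11:50325795-50325823, minus strand): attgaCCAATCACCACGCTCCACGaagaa
Syvn1 (chr19:6046527-6046555, plus strand): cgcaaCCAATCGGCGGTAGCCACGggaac
Derl3 (chr10:75893237-75893265, minus strand): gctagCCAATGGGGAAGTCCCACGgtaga

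The 10 elements lay between 212 bases and 26 bases before the RefSeq start sites, 6 of them on the strand of their gene and 4 on the other strand. The window of Hspa5 overlaps an annotated exon of the gene itself, since GENCODE places a start further upstream, and the other windows overlap no annotated exon. A shorter form, the ER stress response element II with the letters ATTGG, any base and CCACG, which shares its last 5 letters with the first element, was found in Herpud1 and Dnajb11 among the members and in 0.0365% of all promoters. In Herpud1 it lay upstream of the start site and is printed with 5 flanking bases on each side.
Herpud1 (chr8:94386372-94386392, plus strand): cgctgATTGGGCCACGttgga
In Dnajb11 it lay between bases 7 and 17 past the start site. The UPR element TGACGTGG, a site of XBP1, was not in these windows in any of the 26 genes, and 0.676% of all promoters held it. Hsp90b1 was the only gene with the first element at 2 places, and the 185 bases upstream of its annotated start, which hold both, are printed on the strand of the gene, where the proximal element reads as its reverse complement.
Hsp90b1 upstream region (chr10:86705510-86705694, minus strand): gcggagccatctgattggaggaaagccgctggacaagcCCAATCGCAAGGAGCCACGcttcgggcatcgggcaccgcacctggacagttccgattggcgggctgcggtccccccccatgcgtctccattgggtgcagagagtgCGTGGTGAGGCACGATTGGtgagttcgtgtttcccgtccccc

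Between 31872342 and 44215054 reads per tumor fell on genes, with a median of 38526164. Levels are given as CPM, the reads of a gene scaled to a common library size after TMM normalization. Insulin transcripts were abundant in every tumor, with Ins2 between 784 and 43805 CPM, and the 17 beta cell markers summed to 13912 to 96292 CPM. At an adjusted p under 0.05, 0 of 17 were called for sunitinib against control, R+S against control or R+S against sunitinib. Of all genes, 4.48%, 4.16% and 7.21% were called. The 95% interval lay within a 2-fold change for 4, 4 and 3 of the 17, so that larger differences remained possible. For sunitinib against control the median log2 fold change of the 17 was -0.37, with 12 below 0 and 5 above. Markers of other cells differed between the groups. The 30 acinar markers that were tested summed to 42.6 to 148 CPM in control, where 3 of them were at 0 in every tumor, 13939 to 49825 CPM in sunitinib-treated and 3699 to 20094 CPM in R+S tumors. The 10 endothelial markers summed to 583 to 762 CPM in control, 56.0 to 94.7 CPM with sunitinib and 124 to 158 CPM with R+S. The sums of the 7 duct markers overlapped, at 388 to 509 CPM in control and 257 to 621 CPM with sunitinib. Their median log2 fold change for sunitinib against control was 2.78. In that comparison 3 of the 7 were called higher and 0 lower, where 1.93% of all genes were called higher. In bulk tumor RNA, fewer cells of a type and less RNA per cell cannot be told apart. No prefix of the sample titles occurs in more than 1 group, and what a prefix marks is not stated, so that its part cannot be separated from treatment.

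Of the 32 genes, 2 were called, both in R+S against sunitinib. Beside the shares of all genes called, these counts are too small to set the 32 genes apart. At an adjusted p under 0.05 (quasi-likelihood F-test of edgeR, Benjamini-Hochberg over 16645 genes), 0 of the 32 genes passed for sunitinib against control, where 4.48% of all genes were called (1.93% higher and 2.55% lower), and 0 of 32 for R+S against control, where 4.16% were called (1.55% higher and 2.61% lower). For R+S against sunitinib 2 of 32 passed, where 7.21% of all genes were called. Both, Dnajb9 and Atf6, were higher with R+S, the direction of 2.63% of all genes, and 0 were lower, where 4.58% of all genes were. At an unadjusted p under 0.05 the edgeR test gave 1, 4 and 7 of the 32 genes, compared with 19.5%, 20.1% and 30.4% of all genes, and DESeq2 called 0, 0 and 5 of them after adjustment, where it called 7.71%, 8.9% and 17% of all genes to which it gave an adjusted p.

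The median log2 fold change of the 32 genes was -0.13 for sunitinib against control, -0.15 for R+S against control and -0.05 for R+S against sunitinib, beside 0.03, 0.01 and -0.02 over all tested genes. The 95% confidence interval of the fold change lay wholly within a 2-fold change in either direction for 28, 24 and 21 of the 32 genes in the same order, so that larger changes remained possible for the others. Without control 2 the medians of the comparisons with control were 0.00 and -0.01, and without sunitinib 6 that of sunitinib against control was -0.0016. A covariate for the acinar markers turned both comparisons with control to medians of 0.23 and 0.26, in a fit that called 0 of all genes in either. The acinar sums of all control tumors lay below those of all treated tumors. The covariate therefore cannot be told apart from treatment against control, and nothing is drawn from these medians.

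**Figure D1:**
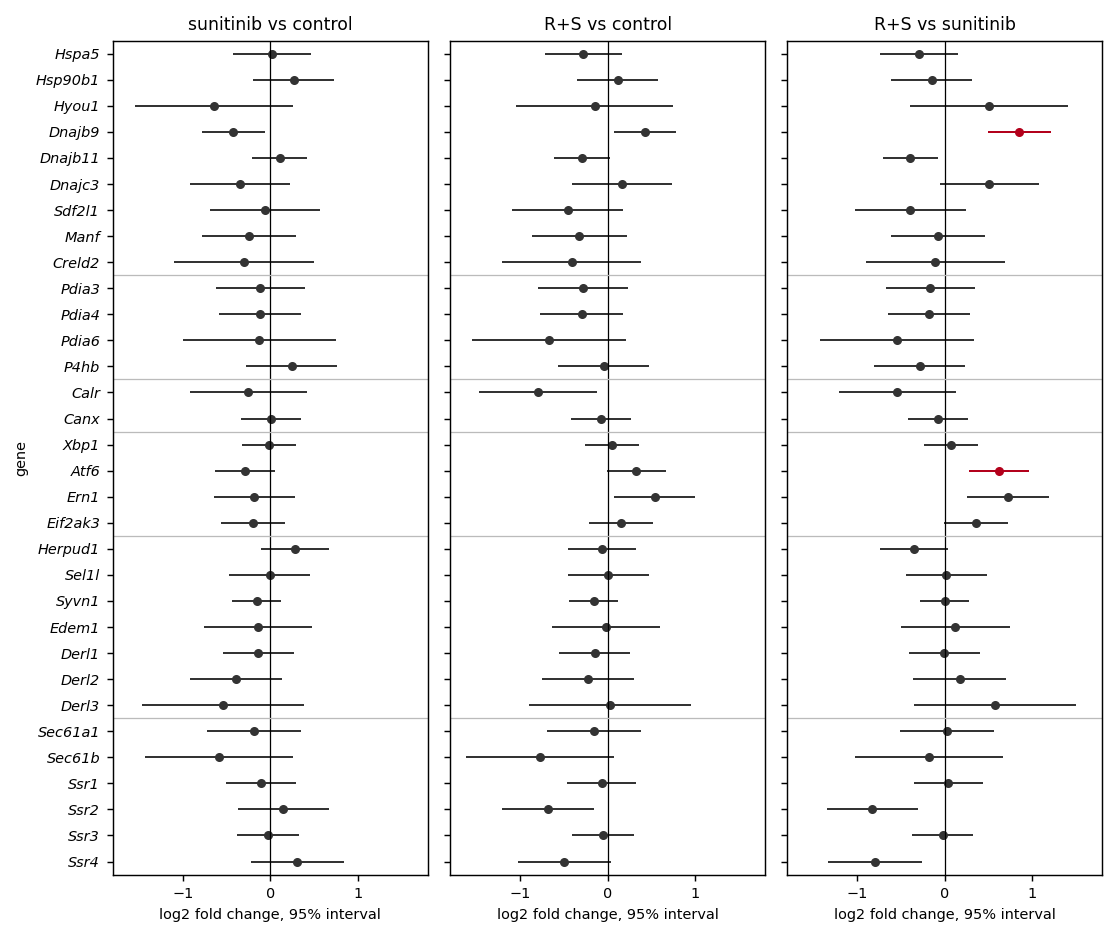
Log2 fold change of each of the 32 genes (points) with its 95% confidence interval (lines) in the 3 comparisons, grouped by role from the chaperones at the top to the translocon at the bottom. Red marks adjusted p under 0.05, which holds for Dnajb9 and Atf6 in R+S against sunitinib, and most other intervals cross 0.

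Among the chaperones of the Hsp70 and Hsp90 families and their partners, 1 of 9 passed in any comparison. It passed for R+S against sunitinib, where 7.21% of all genes were called. Dnajb9 (ERdj4), a J-domain partner of BiP in the ER lumen (chr12:44205559-44210326, minus strand, GRCm38), was at 95.4, 149, 104 and 121 CPM in control tumors 1 to 4. It was at 92.7, 85.3, 99.5 and 72.9 CPM in sunitinib-treated tumors 5, 6, 8 and 12. In R+S tumors 4, 5, 7 and 10 it was at 160, 144, 141 and 186 CPM. All R+S tumors lay above all sunitinib-treated tumors, and the controls lay between them and overlapped both groups. The log2 fold change of R+S over sunitinib was 0.85 ± 0.16 (SE, edgeR adjusted p = 0.0252, n = 4 per group), a 1.8-fold higher level with a 95% interval of 0.51 to 1.2 on the log2 scale. The exact permutation test gave p = 0.0286, the smallest that 70 arrangements of 4 against 4 allow, and 0.422 after adjustment over the 96 such tests.

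Against control the same gene had a log2 fold change of -0.42 ± 0.16 with sunitinib (edgeR adjusted p = 0.168) and of 0.43 ± 0.16 with R+S (edgeR adjusted p = 0.154). Neither passed the threshold, and both intervals excluded 0 before adjustment. Exons of Dnajb9 overlap Mir5627 on the other strand, and 5.50% of the 50-base words of its transcripts occur also in Gm6568, so that a small share of its reads may not be its own.

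The call for Dnajb9 was lost when R+S 4, 5 or 7 was left out (edgeR adjusted p = 0.0704, 0.0941 and 0.0623), and the calls over all genes went from 1200 to 1, 0 and 1 in those fits. It was lost as well in the fit of only the 8 tumors compared (edgeR adjusted p = 0.0955, with 3 genes called in all) and with the acinar covariate (edgeR adjusted p = 0.063). The log2 fold change was 0.85 and 0.84 in those 2 fits and 0.85, 0.89 and 0.90 without R+S 4, 5 and 7.

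The other 8 chaperones did not pass in any comparison. Hspa5 (BiP), the central Hsp70 of the ER, was at 1328, 1879, 1510 and 1543 CPM in the control tumors, at 1616, 1094, 1869 and 1755 CPM with sunitinib and at 1276, 1110, 1158 and 1628 CPM with R+S. The 3 groups overlapped, and the log2 fold changes were 0.02 ± 0.20, -0.28 ± 0.20 and -0.29 ± 0.20 in the order used above. Hsp90b1 (GRP94), its Hsp90 counterpart, averaged 1510 ± 270 (SD), 1813 ± 261 and 1636 ± 422 CPM in control, sunitinib and R+S tumors. Hyou1 (GRP170), the exchange factor of BiP, averaged 874 ± 234, 557 ± 310 and 789 ± 313 CPM, and its within-group SD of 0.65 on the log2 scale was among the widest of the set.

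Dnajb11 (ERdj3) had log2 fold changes of 0.10 ± 0.14, -0.29 ± 0.14 and -0.39 ± 0.14, the last with an edgeR adjusted p of 0.0908, while Dnajc3 (P58IPK) had -0.35 ± 0.25, 0.16 ± 0.25 and 0.51 ± 0.25 with an adjusted p of 0.197 for the last. Sdf2l1, which works with Dnajb11 on BiP, averaged 51.7, 49.4 and 37.6 CPM in the 3 groups. Manf, a secreted BiP-binding factor, averaged 293, 247 and 234 CPM, and Creld2, an ER stress-inducible protein with disulfide-related domains, averaged 150, 122 and 113 CPM. Their SD within a group ranged from 12.5 CPM for Sdf2l1 to 68.8 CPM for Manf.

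**Figure D2:**
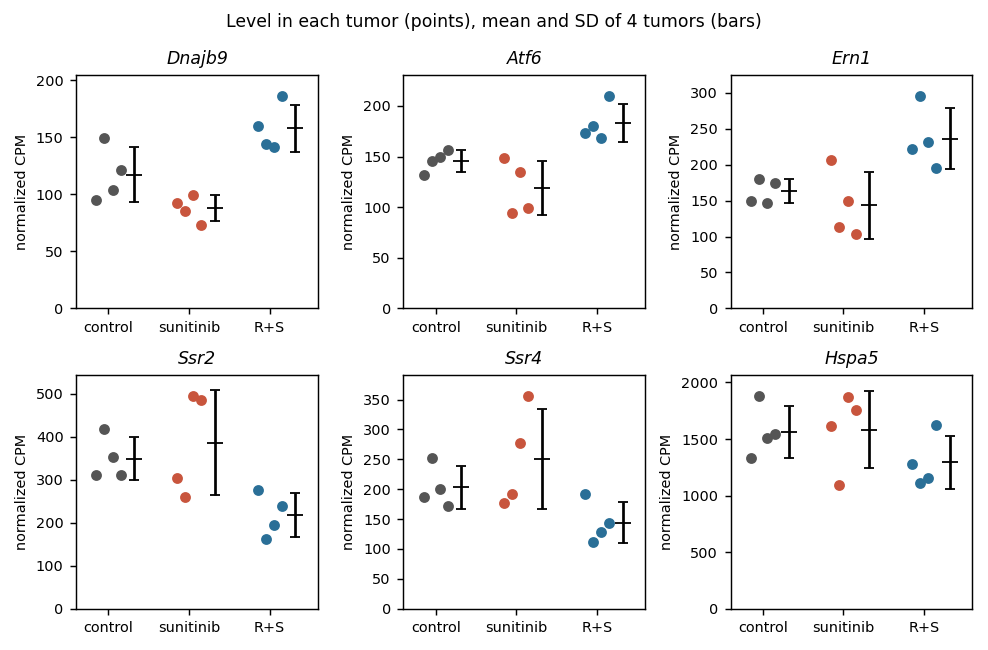
Normalized CPM of Dnajb9, Atf6, Ern1, Ssr2, Ssr4 and Hspa5 in each tumor (points, 4 per group), with the mean and SD of each group as bars beside them; every axis starts at 0. The R+S tumors lie above all sunitinib-treated tumors for Dnajb9 and Atf6, and the groups overlap for the other 4 genes in that comparison.

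The oxidoreductases, which form and shuffle disulfide bonds, gave 0 of 4 calls in each comparison by edgeR and by DESeq2. At an unadjusted p under 0.05 the edgeR test also gave 0 of 4, beside 19.5%, 20.1% and 30.4% of all genes. Pdia6 (P5) averaged 838 ± 263, 768 ± 356 and 527 ± 198 CPM in control, sunitinib and R+S tumors, with a log2 fold change of -0.67 ± 0.40 for R+S against control (edgeR adjusted p = 0.37). P4hb, the classical disulfide isomerase, averaged 1074, 1270 and 1042 CPM. Pdia3 (ERp57), the partner of the lectin chaperones, averaged 1163, 1074 and 958 CPM and Pdia4 (ERp72) 215, 198 and 174 CPM. All 4 estimates for R+S were below 0 against control and against sunitinib alike, from -0.04 to -0.67 and from -0.16 to -0.54.

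Of the lectin chaperones that hold glycoproteins for folding, Canx stayed close to its mean, at 728 ± 79.6, 729 ± 106 and 693 ± 97.7 CPM, with intervals inside a 1.5-fold change in all comparisons. Calr was at 1099, 2467, 1514 and 1453 CPM in the control tumors, at 1701, 729, 1571 and 1479 CPM with sunitinib and at 1024, 720, 848 and 1172 CPM with R+S. Of the 4 R+S tumors, 3 lay below every control. The log2 fold change of R+S against control was -0.80 ± 0.30 with an unadjusted p of 0.0218 that did not pass after adjustment in edgeR (adjusted p = 0.164).

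The sensors gave the other call. Atf6, the membrane-bound transcription factor that is cleaved in the Golgi under ER stress (chr1:170704674-170867771, minus strand), was at 131, 145, 150 and 156 CPM in control tumors 1 to 4. With sunitinib it was at 148, 94.0, 135 and 99.1 CPM in tumors 5, 6, 8 and 12. In R+S tumors 4, 5, 7 and 10 it was at 173, 180, 168 and 210 CPM. Every R+S tumor exceeded every tumor of both other groups. The log2 fold change of R+S over sunitinib was 0.62 ± 0.15 (edgeR adjusted p = 0.0368, n = 4 per group), 1.54-fold, with an interval of 0.29 to 0.95. The exact permutation p was 0.0286, which is 0.422 over the 96 tests.

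Against control the log2 fold change of Atf6 was -0.29 ± 0.15 with sunitinib and 0.33 ± 0.15 with R+S (edgeR adjusted p = 0.312 and 0.25). The call against sunitinib was lost without R+S 4, 5, 7 or 10 (edgeR adjusted p = 0.0799, 0.104, 0.075 and 0.0839) or sunitinib 12 (0.0674), with no filter on low counts (0.0573), in the fit of the 8 tumors (0.11) and with the acinar covariate (0.0976). Over all alternatives and all fits with 1 tumor left out, whether or not the call was kept, its size stayed between 0.52 and 0.73.

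Ern1 (IRE1), the kinase and RNase that splices Xbp1 mRNA, was at 150, 179, 147 and 174 CPM in control, at 206, 113, 150 and 104 CPM with sunitinib and at 222, 296, 232 and 195 CPM with R+S. The R+S tumors lay above all controls, and 3 of the 4 lay above all sunitinib-treated tumors. Its log2 fold changes were 0.54 ± 0.21 against control (edgeR adjusted p = 0.171) and 0.72 ± 0.21 against sunitinib (edgeR adjusted p = 0.0565), and DESeq2 called the second (adjusted p = 0.0193). The first passed only in the fit of the 8 tumors (edgeR adjusted p = 0.0323).

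Eif2ak3 (PERK), the kinase that phosphorylates eIF2α, averaged 71.0 ± 12.5, 61.8 ± 12.4 and 79.1 ± 3.38 CPM, and R+S exceeded sunitinib by 0.36 ± 0.16 on the log2 scale (edgeR adjusted p = 0.16). Xbp1, the transcription factor downstream of IRE1, averaged 316 ± 50.6, 311 ± 31.4 and 328 ± 32.2 CPM, with all 3 log2 fold changes between -0.02 and 0.07 and an SE of 0.14. The 4 estimates of this role were below 0 for sunitinib against control and above 0 for R+S against both groups. The 1 call among these 12 was in R+S against sunitinib, where 7.21% of all genes were called.

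The ERAD genes gave 0 of 7 calls in each comparison by edgeR and by DESeq2. At an unadjusted p under 0.05 the edgeR test also gave 0 of 7, beside 19.5%, 20.1% and 30.4% of all genes. Herpud1, an ERAD adaptor, was at 107, 192, 119 and 112 CPM in control, at 176, 168, 160 and 141 CPM with sunitinib and at 125, 124, 137 and 121 CPM with R+S. All sunitinib-treated tumors lay above all R+S tumors, with a log2 fold change of R+S against sunitinib of -0.35 ± 0.17 that did not pass (edgeR adjusted p = 0.193). Sunitinib against control gave 0.28 ± 0.17 (edgeR adjusted p = 0.388), which without control 2 became 0.52 and passed (edgeR adjusted p = 0.0262).

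Sel1l and Syvn1 (HRD1), the core of the ubiquitin ligase that retrieves misfolded proteins, averaged 213, 212 and 214 CPM and 108, 97 and 96.8 CPM. Syvn1 had the narrowest spread of the set, with a within-group SD of 0.16 on the log2 scale. Edem1, which marks glycoproteins for disposal, averaged 142, 129 and 140 CPM. The derlins, channel-like proteins of the same pathway, averaged 154, 140 and 139.5 CPM for Derl1, 181, 138 and 155 CPM for Derl2 and 33.2, 22.8 and 33.9 CPM for Derl3. Derl3 was at 68.9 CPM in R+S 10 and at 18.2 to 24.7 CPM in the other R+S tumors, and its interval for R+S against sunitinib ran from -0.34 to 1.49.

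The translocon gave 0 of 6 calls in each comparison by edgeR. At an unadjusted p under 0.05 the edgeR test gave 0, 1 and 2 of 6, beside 19.5%, 20.1% and 30.4% of all genes. DESeq2 called 2 of 6 for R+S against sunitinib, where it called 17% of all genes with an adjusted p. Ssr2, a subunit of the translocon-associated protein complex (TRAP), was at 312, 420, 354 and 312 CPM in control, at 305, 260, 495 and 486 CPM with sunitinib and at 277, 162, 194 and 239 CPM with R+S. All R+S tumors lay below all controls and 3 of 4 lay below all sunitinib-treated tumors. The log2 fold changes of R+S were -0.68 ± 0.23 against control (edgeR adjusted p = 0.132) and -0.83 ± 0.23 against sunitinib (edgeR adjusted p = 0.0547). The second passed in edgeR with scaling by library size (adjusted p = 0.046), with TMM without acinar genes (0.0449), with 10 counts required in every tumor (0.0466) and without sunitinib 5 (0.0314) or 6 (0.0276).

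Ssr4, another TRAP subunit, was at 187, 253, 200 and 171 CPM in control, at 177, 192, 278 and 356 CPM with sunitinib and at 193, 112, 129 and 143 CPM with R+S. Of the R+S tumors, 3 lay below both other groups and the fourth overlapped them, with a log2 fold change of -0.80 ± 0.24 against sunitinib (edgeR adjusted p = 0.0615). DESeq2 called both subunits lower with R+S than with sunitinib (adjusted p = 0.0145 for Ssr2 and 0.0221 for Ssr4). Ssr1 and Ssr3, which belong to the same complex, had log2 fold changes of 0.04 ± 0.18 and -0.03 ± 0.16 in that comparison. Sec61a1, the pore, averaged 445, 392 and 399.5 CPM, and Sec61b, a small subunit, 220 ± 57.9, 146 ± 68.3 and 129 ± 46.5 CPM. Of the 50-base words of Sec61b, 17.4% occur in other genes (Gm10320, Gm5870 and Gm33666), so that its counts are uncertain.

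Transcript length moved with R+S against sunitinib over all genes. The median log2 fold change was -0.26 for the 2477 genes whose median protein-coding transcript is under 1000 bases, -0.05 for 9452 genes of 1000 bases to under 4000 bases and 0.20 for 2656 genes of 4000 bases or more. Ssr2 (569 bases) and Ssr4 (783 bases) are of the first kind and Atf6 (7246 bases) of the last, while Dnajb9 (1422 bases) is of the middle kind. The part of transcript length in these differences was not tested. Acinar markers, summed above, moved with every comparison too. For R+S against sunitinib 29 of 30 had estimates below 0 and 1 above, with a median log2 fold change of -1.41. Of the 30, 2 were called lower, where 4.58% of all genes were. The covariate cannot be told apart from treatment against control, whereas the acinar sums of R+S and sunitinib-treated tumors overlapped. With it, the log2 fold changes of R+S against sunitinib were 0.84 for Dnajb9, 0.63 for Atf6 and -0.95 for both Ssr2 and Ssr4. That edgeR fit called 0 of the 32 genes and 155 of all genes. The part of the acinar markers was not tested further.

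Few of the 32 genes had groups that did not overlap. For sunitinib against control 0 of 32 genes had separate groups, where 10.9% of all genes did (5.17% higher and 5.76% lower), and scaling by library size alone separated 2, Dnajb9 and Syvn1. For R+S against control 3 genes did (Atf6, Ern1 and Ssr2), where 23.5% of all genes did (11.6% higher and 11.9% lower). For R+S against sunitinib 3 genes did (Dnajb9, Atf6 and Herpud1), where 18.6% of all genes did (8.9% higher and 9.73% lower).

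The level per length spanned a wide range. In control tumors Hsp90b1 (766 ± 137), Calr (748 ± 268), Ssr2 (614 ± 89.2) and P4hb (592 ± 109) had the highest levels per kilobase of median protein-coding transcript, in CPM per kilobase. Calr and its neighbours in this order did not differ beyond their SD. Atf6 (20.1 ± 1.46), Edem1 (24.5 ± 5.57), Derl3 (25.2 ± 10.6) and Eif2ak3 (26.1 ± 4.61) had the lowest. When the merged exon length was used in place of the transcript length, 7 of the 8 highest and 6 of the 8 lowest stayed among the 8 highest and 8 lowest.

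The most widespread pattern was not between the groups but within them. Control 2 had the highest level of the 4 control tumors in 30 of the 32 genes, the exceptions being Atf6 and Eif2ak3, and it was highest for 23.2% of all tested genes. Control 1 was lowest in 25 (30.3% of all genes). Among sunitinib-treated tumors, sunitinib 8 was highest in 19 (15% of all genes) and sunitinib 6 lowest in 22 (32.9%). Among R+S tumors, R+S 10 was highest in 26 (29.5%) and R+S 5 lowest in 21 (28.6%). The exceptions lay in several roles. Ern1 and Herpud1 were lowest in R+S 10, Pdia3, Ssr2 and Ssr4 were highest in R+S 4, and Dnajb11 was highest in sunitinib 6.

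Measured from the mean of the 12 tumors, the median of the 32 genes was 0.39 higher on the log2 scale in control 2, 0.28 higher in sunitinib 8 and 0.26 higher in R+S 10. It stood at -0.46 in sunitinib 6, at -0.29 in R+S 5 and at -0.18 in control 1. The range of these medians inside each group was larger than any median fold change between groups. That range is over single tumors and a fold change compares group means, which vary less, so that the sizes are not directly comparable. In sunitinib 6 the beta cell markers summed to 13912 CPM, against 47653 to 96292 CPM in the other sunitinib-treated tumors, and the acinar markers to 49825 CPM, the highest of the 12. Control 2 had the highest beta cell sum of the controls, at 78640 CPM against 50691 to 56303 CPM. The order did not hold throughout, since sunitinib 8 (59485 CPM) lay below sunitinib 12 (96292 CPM), R+S 10 (82978 CPM) below R+S 4 (85339 CPM) and control 4 (50691 CPM) below control 1 (51882 CPM). The part of cell makeup in the shared highs and lows was not tested.

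**Figure D3:**
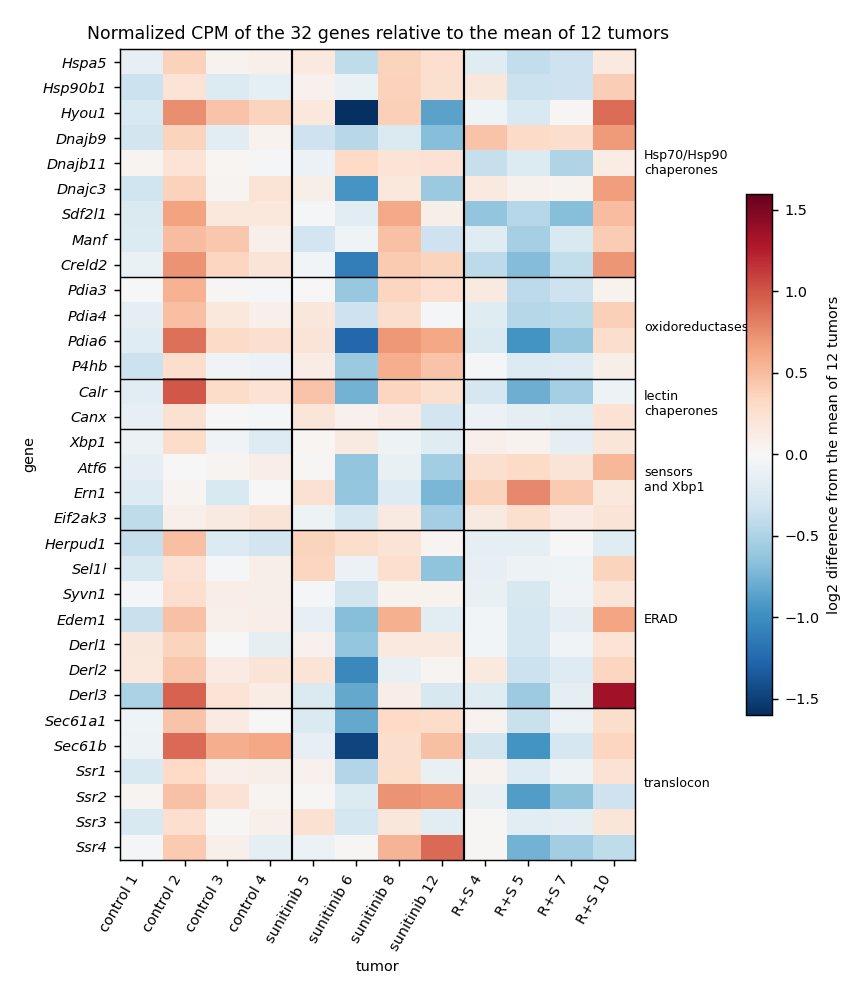
Log2 difference of the normalized CPM of each gene (rows, by role) from its mean over the 12 tumors (columns, by group); red is higher and blue lower. Control 2, sunitinib 8 and R+S 10 are red and sunitinib 6 and R+S 5 blue across most rows, whereas Dnajb9, Atf6 and Ern1 are red in all R+S tumors.

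**Figure D4:**
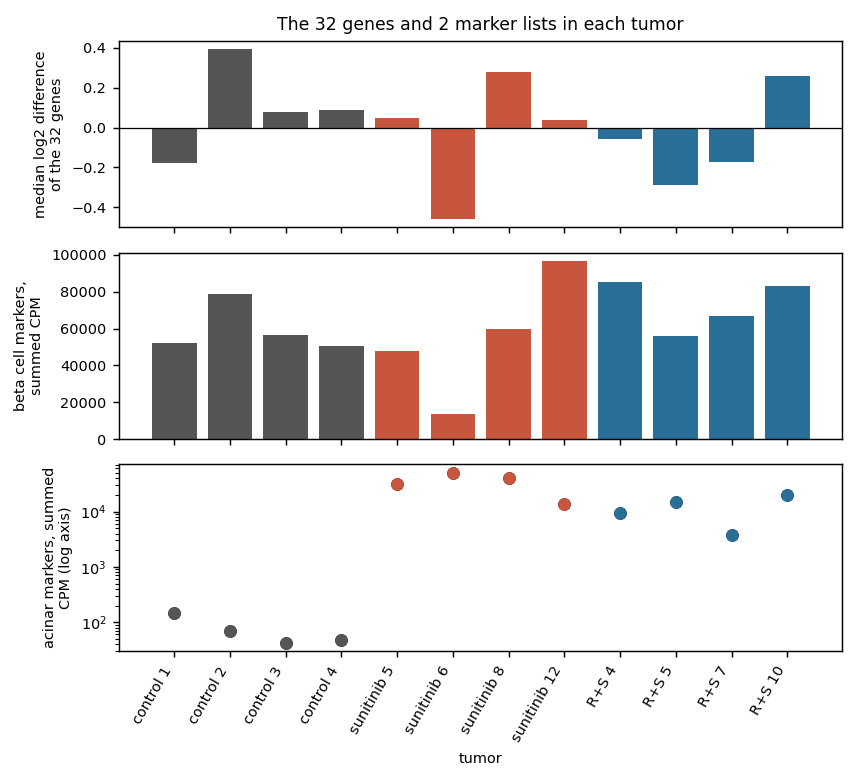
Median log2 difference of the 32 genes from the mean of 12 tumors (top bars), summed CPM of 17 beta cell markers (middle bars) and of the acinar markers (bottom points, log axis) in each tumor. Sunitinib 6 has the lowest median (-0.46), the lowest beta cell sum and the highest acinar sum.

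The spread was set by gene as well as by tumor. The within-group SD of log2 CPM ranged from 0.16 for Syvn1 to 0.66 for Pdia6, with a median of 0.33, beside 0.34 over all tested genes. Pdia6, Hyou1, Sec61b, Derl3 and Creld2 had the widest spread and Syvn1, Xbp1, Dnajb11 and Canx the narrowest. The 9 genes with the ER stress response element had a median SD of 0.39, the 17 others for which a promoter was held 0.31, and the 6 with none held 0.36. The 17 include Dnajb11 and Herpud1, which carry the second element. Measured from the group mean, the medians of the 9, the 17 and the 6 were 0.42, 0.23 and 0.28 in R+S 10, -0.52, -0.31 and -0.53 in sunitinib 6, 0.34, 0.33 and 0.28 in control 2 and 0.27, 0.25 and 0.42 in sunitinib 8. Between treatments the 9 genes gave medians of -0.16, -0.16 and -0.11 and the 17 others -0.11, -0.06 and -0.03. For R+S against sunitinib 0 of the 9, 1 of the 17 and 1 of the 6 were called, where 7.21% of all genes were. Counts this small do not set the 9 genes apart.

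The wider ER pathway was described by 96 further genes, 95 of which were tested. By edgeR, 2 of these were called higher for sunitinib against control and 1 for R+S against control, with 0 lower in either. Of all genes, 1.93% and 1.55% were called higher and 2.55% and 2.61% lower. For R+S against sunitinib 3 were higher and 6 lower, where 2.63% of all genes were called higher and 4.58% lower. The list for the PERK and ATF4 output, through which stressed cells induce amino acid synthesis and cell death genes, held 4 of these calls. Of the 11 genes on this list, 4 were lower with R+S than with sunitinib and 0 higher, with a median log2 fold change of -0.69. The 4 were Atf4, Ddit3, Trib3 and Eif2s1, and the last lies upstream of Atf4 and is not itself an output.

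Atf4, the transcription factor of this output, was at 304, 383, 277 and 245 CPM in control, at 341, 334, 391 and 468 CPM with sunitinib and at 197, 193, 213 and 209 CPM with R+S. R+S lay below both other groups in every tumor, at -0.92 ± 0.15 on the log2 scale against sunitinib (edgeR adjusted p = 0.0233). Ddit3 (CHOP), a pro-apoptotic factor, averaged 58.6 ± 24.5, 75.8 ± 10.4 and 33.3 ± 7.95 CPM and fell by 1.18 ± 0.28 (edgeR adjusted p = 0.0346). Trib3, a pseudokinase induced by both, averaged 20.4 ± 9.77, 39.9 ± 11.4 and 10.9 ± 4.63 CPM and fell by 1.87 ± 0.41 (edgeR adjusted p = 0.0295). The fourth, Eif2s1 (eIF2α), the substrate of PERK, fell by 0.48 ± 0.09 (edgeR adjusted p = 0.0257). In sunitinib against control 1 of the 11 was called, Cebpb, a transcription factor, at 1.16 ± 0.27 (edgeR adjusted p = 0.0307). Of all genes, 1.93% were called higher there.

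Among 16 other sensors and regulators, 2 were called higher for R+S against sunitinib and 0 lower, beside 2.63% and 4.58% of all genes. Creb3l2, a membrane-bound factor related to ATF6, was at 125, 129, 141 and 133 CPM in control, at 112, 101, 118 and 75.7 CPM with sunitinib and at 180, 220, 151 and 176 CPM with R+S. Its log2 fold change against sunitinib was 0.84 ± 0.15 (edgeR adjusted p = 0.0243), and that of Crebrf, a regulator of CREB3, was 0.81 ± 0.17 (edgeR adjusted p = 0.0277). R+S tumors thus had higher Atf6, Creb3l2 and Crebrf and lower Atf4, Ddit3 and Trib3 than sunitinib-treated tumors. All 4 tumors of a group lay on the same side for each, but these genes were named because they were called. In this comparison 18.6% of all genes had groups that did not overlap. Atf6 (7246 bases) and Creb3l2 (7082 bases) have transcripts of 4000 bases or more and Ddit3 (745 bases) of under 1000 bases. Crebrf, Atf4 and Trib3 lie between, and the part of length was not tested.

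**Figure D5:**
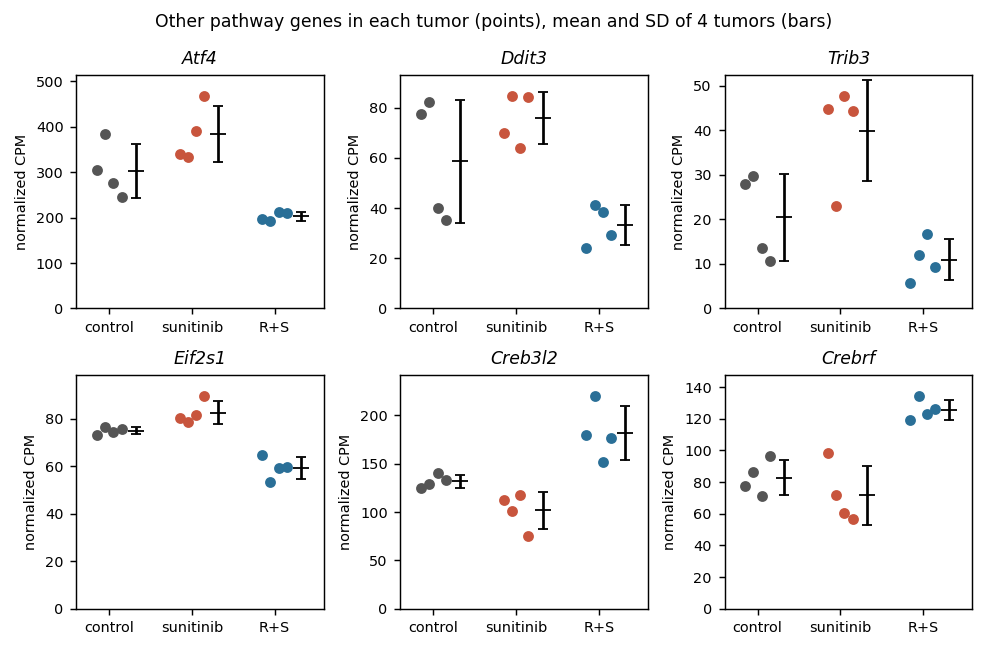
Normalized CPM of Atf4, Ddit3, Trib3, Eif2s1, Creb3l2 and Crebrf in each tumor (points, 4 per group), with the mean and SD of each group as bars; every axis starts at 0. The R+S points lie below all sunitinib points for the first 4 genes and above them for Creb3l2 and Crebrf.

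The remaining lists held few calls by edgeR. In the list of 21 other oxidoreductases and folding factors, Erp29, an ER folding factor, was lower with R+S than with sunitinib (-0.76 ± 0.20, edgeR adjusted p = 0.0468) and Dnajc1 (ERdj1), a J-domain protein, was higher (0.50 ± 0.14, edgeR adjusted p = 0.0488). Pdia2, a disulfide isomerase of pancreatic acinar cells, was at 0.00 to 0.0507 CPM in control, at 3.24 to 8.63 CPM with sunitinib and at 1.31 to 3.04 CPM with R+S (edgeR adjusted p = 2.46e-05 and 0.000201 against control), and it moved with the acinar markers summed above. Of 17 tested genes of translocation and signal peptide cleavage, Srp9, of the signal recognition particle, was lower with R+S than with sunitinib (-0.62 ± 0.15, edgeR adjusted p = 0.036). The 21 other ERAD genes and the 10 oligosaccharyltransferase genes gave 0 calls in each comparison by edgeR and by DESeq2. At an unadjusted p under 0.05 the edgeR test gave 1, 1 and 3 of 21 and 0, 0 and 2 of 10, beside 19.5%, 20.1% and 30.4% of all genes. In the order used above, DESeq2 called 1, 2 and 7 of 10 genes of the PERK and ATF4 list. Ppp1r15b, which is also on the regulator list, was counted there. DESeq2 called 0, 2 and 2 of 16 regulators, 2, 3 and 4 of 21 folding genes and 0, 0 and 1 of 17 translocation genes. Of all genes with an adjusted p it called 7.71%, 8.9% and 17%.

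Over the tumors left out one at a time, the log2 fold change of Atf4 stayed between -0.98 and -0.81 with a highest edgeR adjusted p of 0.0941, that of Trib3 between -2.14 and -1.65 (0.0971) and that of Creb3l2 between 0.72 and 0.92 (0.0941). Of these 8 fits, the call was lost in 3 each for Atf4, Creb3l2 and Eif2s1, in 4 for Crebrf, in 5 each for Ddit3 and Trib3, in 6 each for Erp29 and Srp9 and in 7 for Dnajc1.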

How the data were processed

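The authors deposited a table of raw read counts per gene for each tumor; total RNA had been made into strand-specific libraries from poly(A) RNA. The submitters' processing notes name cutadapt 1.2.1, TopHat2 2.0.9, HTSeq 0.5.4p3 and GRCm38, and the annotation release and the strand setting of the counting are not given in the sources used here. The 5 summary lines per table were left out. Reads aligned to several places were not counted. Labels gave groups and replicate numbers, and nothing states that tumors of a group came from different mice, so that p-values measure the spread between tumors.

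Counts of 12 tumors were normalized by TMM and tested in 1 quasi-likelihood fit (edgeR 4.0.16, limma 3.58.1, R 4.3.3) after a filter (minimum count 10, minimum total 15) that left 16645 genes. Adjustment followed Benjamini and Hochberg within each comparison, at a threshold of 0.05. CPM are normalized, log2 CPM used a prior count of 2, and SE is the log2 fold change divided by the square root of F. DESeq2 1.42.0 was an alternative. Exact permutation tests used scipy 1.17.1, two-sided. Within groups, tumors differed by more than sampling noise. Coordinates are of GENCODE M21, and promoters of RefSeq GRCm38.p6.

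The 32 genes and all lists were chosen with earlier results of these data known. Members called in any comparison were named with each tumor's value, and in each further list up to 3 called genes per direction by size. Other genes with values per tumor, and Eif2s1, were chosen after their values were seen.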

Additional observations from a re-analysis of the deposited data

Results flagged for a closer look

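In 9 of 96 sets of 4 tumors (32 genes in 3 groups), 1 tumor stood so far from the other 3 that its gap to them passed the critical value of Dixon. Chance alone passes it in about 5% of independent, normally distributed sets. The values were CPM, not log2 CPM, and the 32 genes shared highs and lows within a tumor. The 96 sets are therefore not independent, and nothing is drawn from 9 of 96 beside that 5%. Of the 9, 6 were R+S 10, which stood above the other R+S tumors. Hyou1 was at 1253 CPM in R+S 10 and at 572 to 687 CPM in the others, and Dnajc3 at 453 CPM against 296 to 316 CPM. Sdf2l1 was at 62.1 CPM against 27.5 to 32.2 CPM, and Creld2 at 196 CPM against 74.0 to 91.6 CPM. Sel1l was at 269 CPM against 191 to 199 CPM, and Derl3 at 68.9 CPM against 18.2 to 24.7 CPM. In control 2, Pdia3 was at 1529 CPM against 1029 to 1051 CPM in the other controls and Herpud1 at 192 CPM against 107 to 119 CPM. Derl1 was at 93.3 CPM in sunitinib 6 and at 150 to 159 CPM in the other sunitinib-treated tumors. Neither Dnajb9 nor Atf6 was among them.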

How the results depend on the processing

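For sunitinib against control, 0 of 32 genes were called under all 11 alternatives in scaling, filter, tool, threshold and samples, and 0 to 1 with a tumor left out (1, Herpud1, without control 2). For R+S against control, 0 were called under the alternatives except the fit of only the 8 tumors compared, which called 2 (Ern1 higher and Ssr2 lower, with 2557 genes called in all), and 0 with any tumor left out. For R+S against sunitinib the 2 calls stayed 2 with the size factors of DESeq2 and with upper-quartile scaling and became 3 with library size only, with TMM without acinar genes and with 10 counts in every tumor (Ssr2 added), 3 with label prefixes summed (Ern1 added), 5 in DESeq2 (with Ern1, Ssr2 and Ssr4), 1 with no filter (Dnajb9), and 0 in the fit of the 8 tumors, with the acinar covariate and at an adjusted p under 0.01, where 0 genes were called in all. With a tumor left out the count ran from 0 to 6: it was 0 without R+S 4, 5 or 7, 1 without R+S 10 or sunitinib 12 (Dnajb9), 2 without sunitinib 8, 4 without sunitinib 6 and 6 without sunitinib 5. Separate groups for sunitinib against control went from 0 to 2 genes under scaling by library size, an alternative chosen after seeing the data. Of the called values none changed sign. Beside the stricter threshold, at which both calls were lost, Dnajb9 kept its call in 8 of 10 alternatives and 5 of 8 fits without 1 tumor, and Atf6 in 7 of 10 and 3 of 8. Over tumors left out, the median of the 32 genes ran from -0.23 to 0.00, from -0.26 to -0.01 and from -0.15 to 0.05 in the 3 comparisons, so that its sign was not fixed in the first and the last. Why the other settings moved the calls was not tested. The fit with label prefixes summed joined tumors of the same prefix in the treated groups only, to 2 sunitinib and 3 R+S samples. The control tumors were not summed, and what a prefix marks is not stated. No paired analysis was possible because any 2 groups share at most 1 replicate number. Counts per gene were high enough (561 reads at least) that the spread between tumors, not depth, limits precision.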
